A study of Mus musculus with 6 samples.

Results

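The genes that encode collagen chains were followed in 6 mouse RNA libraries, of which 2 carry the label wt, 2 the label mdx and 2 the label mdx/Ripk3mKO. They were taken as every protein-coding row whose symbol is Col, a number, the letter a and a number, which gave 29 of the 14515 listed genes. They comprise 9 chains of fibrillar collagens, 5 chains of basement membrane collagens and 15 others. A test was possible for 28 of the 29, namely those that reached 10 scaled counts in 2 or more libraries, which Col23a1 did not.

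A collagen molecule is a helix of chains, each with a long repeat in which glycine recurs at regular steps. Chains are hydroxylated and folded in the endoplasmic reticulum, secreted, trimmed by proteases and, in fibrillar types, cross-linked by lysyl oxidases. Fibrillar types I, III and V build the interstitial fibrils of muscle, type IV forms the sheet of the basement membrane that encloses each myofibre and its satellite cells, and type VI forms beaded filaments that link the basement membrane to the interstitium. Satellite cells are the resident stem cells of muscle. In mice they make collagen V themselves, and it is needed there to keep them quiescent, while the collagen VI of their niche comes largely from interstitial fibroblasts.

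The libraries labelled wt carry the genotype wild type, those labelled mdx carry a mutation of the dystrophin gene and are a model of Duchenne muscular dystrophy, and those labelled mdx/Ripk3mKO add to mdx a change of Ripk3, a kinase of necroptosis, that the labels write as mKO without spelling it out. The sample labels describe sorted quiescent satellite cells, 10000 to 20000 for a library. The series text describes instead activated wild-type cells kept for 72 hours in the lower well of a transwell, with wt, mdx or mdx/Ripk3mKO cells above them, in which case the genotype is that of the upper cells. Groups are therefore called by their labels. No promoter or Cre line, age or sex was given in the sources used here, nor whether the pair of a label stems from different animals or cultures. The p-values therefore reflect how far these particular libraries differ, a spread that may be technical.

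The values are read counts per gene that had been scaled between libraries and rounded, called scaled counts here. They summed to between 20611974 and 21037153 in each library. All libraries held abundant myogenic transcripts, with Myod1 at 18636 to 23595 and Myog at 26795 to 35263 scaled counts, beside Pax7 at 1755 to 2119. The proliferation marker Mki67 was at 13883 to 16904 and the sarcomeric actin gene Acta1 at 65741 to 85379. Which of the descriptions of the cells applies was not tested. Ripk3 did not separate the groups, at 45 and 32 scaled counts in the wt pair, 23 and 36 in the mdx pair, and 17 and 33 in the mdx/Ripk3mKO pair. Library 1 labelled mdx/Ripk3mKO stood apart in sex-linked transcripts, with Xist at 6918 scaled counts against 164 to 666 elsewhere and the Y-linked Ddx3y at 373 against 1543 to 1785. Results that rest on the mdx/Ripk3mKO libraries are therefore given with and without it.

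Collagen chains made up 0.199% to 0.234% of the scaled counts of a library. Summed over the 29 chains, scaled counts were 41668 and 42027 in the wt pair, 44900 and 48261 in the mdx pair, and 42507 and 41224 in the mdx/Ripk3mKO pair. Both mdx libraries lay above the other 4. The fibrillar chains supplied 53.5% to 57.9% of these counts, the basement membrane chains 28.2% to 32.4% and the others 11.9% to 16.0%.

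Levels of different genes were compared as scaled counts per kilobase of exon per 1000000 scaled counts. On that scale the highest chain was Col5a2, with a mean of 61.2 over the 6 libraries, followed by Col4a1 at 47.2, Col4a2 at 29.8, Col5a1 at 25.3 and Col3a1 at 22.3. Col5a2 ranged from 57.0 to 63.3 and Col4a1 from 41.9 to 52.7, so their ranges did not meet. Those of Col4a2 (26.2 to 33.0) and Col5a1 (23.7 to 26.3) met at their edges, and those of Col5a1 and Col3a1 (20.5 to 26.3) overlapped. Type V and type IV chains thus headed the list, and Col1a1, a chain of the main collagen of tendon and bone, had a mean of 0.694 on the same scale. As these are bulk samples, fewer cells of a type and less RNA per cell cannot be told apart.

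**Figure D1:**
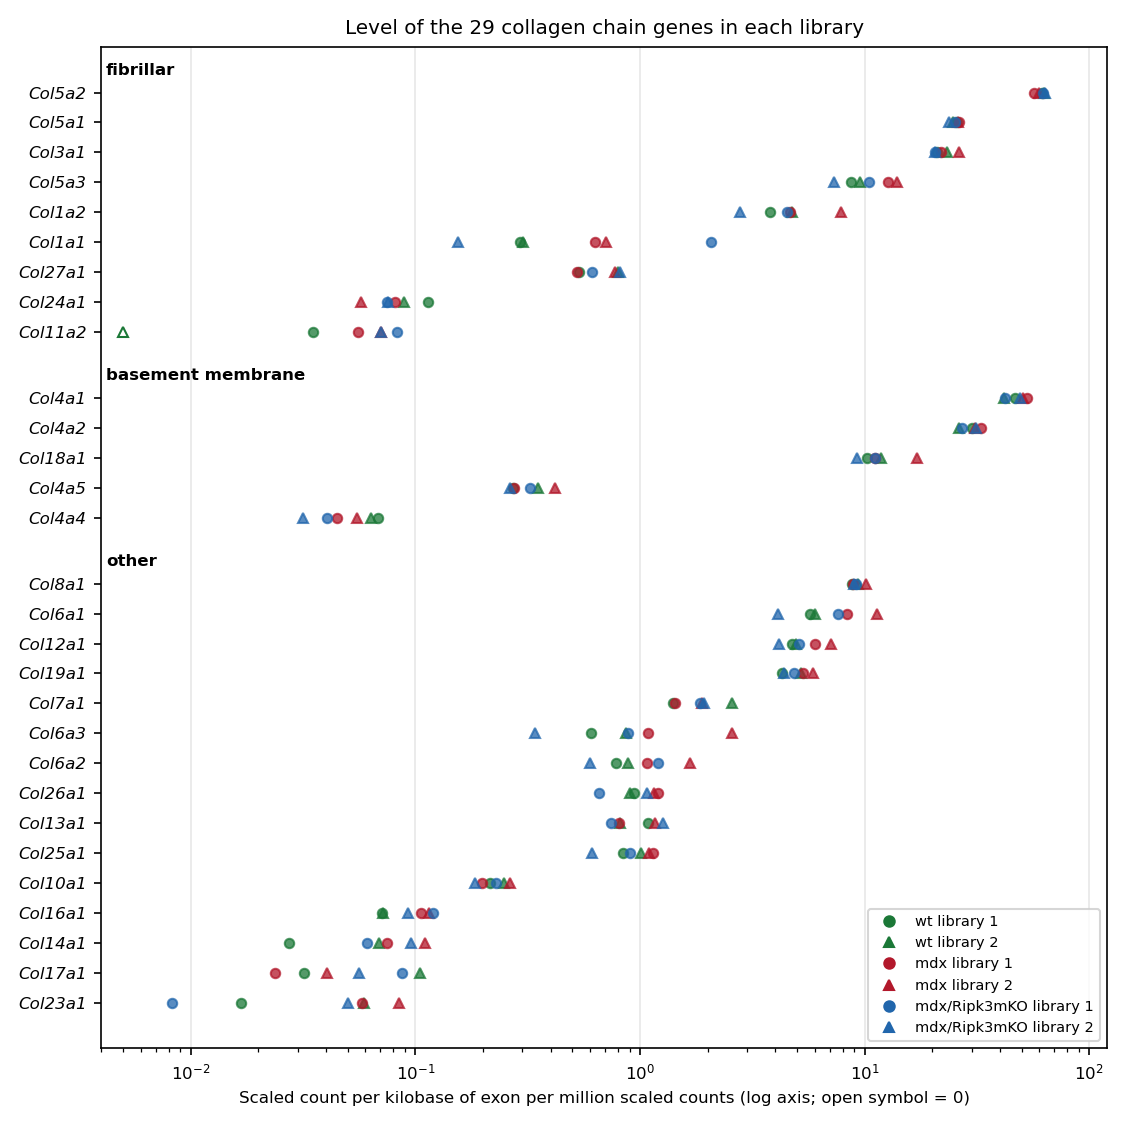
Level of each of the 29 collagen chain genes in each of the 6 libraries, as scaled counts per kilobase of exon per 1000000 scaled counts on a log axis, with chains grouped by class and an open symbol for a value of 0. Col5a2, Col4a1, Col4a2, Col5a1 and Col3a1 lie highest with their libraries close together, while Col1a1 spreads from 0.154 to 2.07.

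Col4a1 and Col4a2 encode the chains of the ubiquitous type IV collagen, which assemble with each other into the network of the basement membrane. Col4a1 (ENSMUSG00000031502) occupies chr8:11198423-11312826 of mm10 on the minus strand and Col4a2 (ENSMUSG00000031503) chr8:11312805-11449287 on the plus strand. The genes lie head to head, overlap by 22 bases at their starts, and are known to share a bidirectional promoter. The sequences around their starts are shown because the levels of the pair, given below, moved together across the libraries. They are the windows from 250 bases before to 50 bases after each start in the RefSeq annotation of GRCm38.p6, written 5′ to 3′ on the strand of the gene, Col4a1 from chr8:11312777-11313076 on the minus strand and Col4a2 from chr8:11312555-11312854 on the plus strand.
Col4a1: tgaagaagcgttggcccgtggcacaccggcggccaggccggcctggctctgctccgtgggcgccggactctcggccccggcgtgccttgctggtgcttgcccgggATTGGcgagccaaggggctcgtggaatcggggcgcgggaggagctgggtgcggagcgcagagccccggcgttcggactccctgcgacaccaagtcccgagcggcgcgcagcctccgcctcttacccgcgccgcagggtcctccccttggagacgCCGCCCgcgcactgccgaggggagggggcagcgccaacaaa
Col4a2: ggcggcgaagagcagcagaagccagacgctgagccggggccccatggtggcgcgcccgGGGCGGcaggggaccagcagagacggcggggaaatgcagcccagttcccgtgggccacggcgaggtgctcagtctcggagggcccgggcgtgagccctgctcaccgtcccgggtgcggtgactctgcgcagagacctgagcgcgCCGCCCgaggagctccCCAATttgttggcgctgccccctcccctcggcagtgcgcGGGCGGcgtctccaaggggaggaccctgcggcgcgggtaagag
Capitals mark the CCAAT and GGGCGG motifs, found on either strand, so that ATTGG and CCGCCC are their reverse complements. The windows have 78 bases in common. The CCAAT match begins 145 bases before the start of Col4a1 and a separate match 32 bases before that of Col4a2. The GGGCGG match 10 bases into Col4a1 and the one 8 bases into Col4a2 are the same 6 bases read from opposite strands. These matches are descriptions of the letters and not of binding.

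Scaled counts of Col4a1 were 7276 and 6470 in the wt pair, 8266 and 7765 in the mdx pair, and 6603 and 7654 in the mdx/Ripk3mKO pair. Those of Col4a2 were 4124 and 3586 in the wt pair, 4588 and 4250 in the mdx pair, and 3782 and 4309 in the mdx/Ripk3mKO pair. For both genes the mdx libraries lay above the wt libraries, while mdx/Ripk3mKO library 1 lay within the range of wt and library 2 above it. Per kilobase of exon the ratio of Col4a1 to Col4a2 kept to 1.55 to 1.62 in all 6 libraries.

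Col18a1 (ENSMUSG00000001435, chr10:77052178-77166548, minus strand) encodes the collagen XVIII core protein, a basement membrane heparan sulfate proteoglycan whose cleaved end is endostatin. It was at 1495 and 1727 scaled counts in the wt pair, 1639 and 2475 in the mdx pair, and 1648 and 1344 in the mdx/Ripk3mKO pair. Library 2 of mdx was high, and the groups overlapped. Col18a1 overlaps Slc19a1 on the opposite strand by 8825 bases, and no source used here says whether reads were assigned by strand. The minor type IV chains were low, with Col4a5 at 37 to 58 scaled counts and Col4a4 at 7 to 15.

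Among fibrillar chains, type V regulates the diameter of collagen fibrils. Scaled counts of Col5a2 (ENSMUSG00000026042, chr1:45374321-45503282, minus strand) were 12288 and 12462 in the wt pair, 11491 and 11830 in the mdx pair, and 12619 and 12598 in the mdx/Ripk3mKO pair. Col5a1 (ENSMUSG00000026837, chr2:27886425-28039514, plus strand) was at 4569 and 4336 in the wt pair, 4702 and 4559 in the mdx pair, and 4528 and 4173 in the mdx/Ripk3mKO pair. Both stayed within a narrow range, with Col5a2 lowest in the mdx libraries. Col5a3 (ENSMUSG00000004098, chr9:20770050-20815067, minus strand), a further type V chain of more restricted expression, was at 1227 and 1345 in the wt pair, 1821 and 1955 in the mdx pair, and 1505 and 1029 in the mdx/Ripk3mKO pair. Its mdx libraries stood above all others. The ratio of Col5a3 to Col5a2 per kilobase of exon was 0.141 and 0.152 in the wt pair, 0.223 and 0.233 in the mdx pair, and 0.168 and 0.115 in the mdx/Ripk3mKO pair, highest in mdx.

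Col3a1 (ENSMUSG00000026043, chr1:45311538-45349706, plus strand), the chain of type III collagen, lies tail to tail with Col5a2 at a distance of 24614 bases. It was at 4280 and 4713 scaled counts in the wt pair, 4537 and 5326 in the mdx pair, and 4237 and 4205 in the mdx/Ripk3mKO pair. Col1a2 (ENSMUSG00000029661, chr6:4505493-4541544, plus strand) was at 980 and 1222 in the wt pair, 1212 and 2005 in the mdx pair, and 1182 and 716 in the mdx/Ripk3mKO pair. In both genes library 2 of mdx was highest and library 2 of mdx/Ripk3mKO lowest. Col1a1 (ENSMUSG00000001506, chr11:94936224-94953042, plus strand), which joins Col1a2 in type I collagen, was at 40 and 41 scaled counts in the wt pair, 87 and 96 in the mdx pair, and 286 and 21 in the mdx/Ripk3mKO pair. The mdx/Ripk3mKO libraries held both its highest and its lowest value.

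Col27a1, a fibrillar chain known from cartilage, was at 145 and 215 scaled counts in the wt pair, 144 and 208 in the mdx pair, and 168 and 221 in the mdx/Ripk3mKO pair, and the groups overlapped. Col24a1 lay between 9 and 18 scaled counts. Col11a2, a cartilage chain, was at 5 and 0 in the wt pair, 8 and 10 in the mdx pair, and 12 and 10 in the mdx/Ripk3mKO pair. A count of 3 before scaling corresponds to 2.49 to 3.45 scaled counts in these libraries, by divisors estimated from the table, so the value of 0 in wt library 2 allows up to 3.45, for counting error only.

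Type VI collagen is built from the products of Col6a1, Col6a2 and Col6a3. Scaled counts of Col6a1 (ENSMUSG00000001119, chr10:76708792-76726168, minus strand) were 518 and 547 in the wt pair, 772 and 1022 in the mdx pair, and 699 and 376 in the mdx/Ripk3mKO pair. Its neighbour Col6a2 (ENSMUSG00000020241, chr10:76595762-76623630, minus strand) was at 136 and 153 in the wt pair, 189 and 287 in the mdx pair, and 211 and 104 in the mdx/Ripk3mKO pair. Col6a3 (ENSMUSG00000048126, chr1:90765923-90843971, minus strand) was at 151 and 215 in the wt pair, 273 and 632 in the mdx pair, and 222 and 85 in the mdx/Ripk3mKO pair. All 3 were highest in mdx library 2 and lowest in mdx/Ripk3mKO library 2, and in each the mdx libraries lay above the wt libraries. Per kilobase of exon Col6a1 stood at 6.30 to 7.76 times Col6a2 in the 6 libraries, and Col6a3 at 0.0828 to 0.226 times Col6a1. By scaled count Col6a1 was at 3.31 to 4.08 times Col6a2. The union of annotated exons is 4380 bases for Col6a1 and 8326 for Col6a2, so the size of the ratio depends on the annotation.

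Fibril-associated chains decorate the surface of fibrils. Col12a1 (ENSMUSG00000032332, chr9:79598991-79718720, minus strand), whose mutations cause a myopathy in humans, was at 1503 and 1561 scaled counts in the wt pair, 1919 and 2228 in the mdx pair, and 1641 and 1313 in the mdx/Ripk3mKO pair. Col19a1 (ENSMUSG00000026141, chr1:24263994-24587472, minus strand), a chain made by differentiating muscle cells, was at 611 and 740 in the wt pair, 769 and 838 in the mdx pair, and 701 and 625 in the mdx/Ripk3mKO pair. In both genes the mdx libraries lay above the other 4. Col16a1, at 10 to 17 scaled counts, and Col14a1, at 4 to 16, were low.

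Of the remaining chains, Col8a1 (ENSMUSG00000068196, chr16:57624258-57754737, minus strand), a short chain of network-forming type VIII, was at 1426 and 1510 scaled counts in the wt pair, 1466 and 1632 in the mdx pair, and 1510 and 1454 in the mdx/Ripk3mKO pair. The anchoring fibril chain Col7a1 was at 300 and 549 in the wt pair, 309 and 401 in the mdx pair, and 401 and 411 in the mdx/Ripk3mKO pair. The groups overlapped for both. Col25a1, a transmembrane collagen that muscle needs for its motor innervation in mice, was at 225 and 271 in the wt pair, 312 and 293 in the mdx pair, and 247 and 164 in the mdx/Ripk3mKO pair. Col26a1 was at 160 and 153 in the wt pair, 207 and 195 in the mdx pair, and 113 and 183 in the mdx/Ripk3mKO pair. In both of these the mdx libraries lay above the other 4. Col13a1, a transmembrane chain of the neuromuscular junction, lay between 72 and 121 scaled counts, and Col10a1, which lies within Nt5dc1 on the opposite strand, between 12 and 17. Col17a1 lay between 3 and 13, and the untested Col23a1 between 1 and 10.

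The comparison of the libraries labelled mdx with those labelled wt asks whether the dystrophic label goes with a different set of collagen transcripts. No chain was called by limma over all 14077 tested genes (adjusted p under 0.05), where 0.0071% of genes were called. At an unadjusted p under 0.05, 5 chains were higher and 0 lower, against 3.44% and 3.02% of all genes. The log2 fold change was above 0 for 21 of 28 chains and below for 7, with a median of 0.24 against -0.00 over all genes, and 49.0% of all genes were above 0. For 14 chains both mdx libraries lay above both wt libraries and for 3 below, where all genes gave 17.6% and 18.3%. By class the median was 0.13 for fibrillar, 0.20 for basement membrane and 0.32 for other chains.

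The chain with the smallest p was Col12a1, with a log2 fold change of 0.43 ± 0.11 (SE, limma, adjusted p = 0.552, n = 2 and 2). The basement membrane chains Col4a1 and Col4a2 stood at 0.22 ± 0.08 and 0.20 ± 0.08 (adjusted p = 0.651 and 0.722 by limma). Col19a1 was at 0.26 ± 0.10 (limma, adjusted p = 0.665). Col11a2 was at 2.02 ± 0.73 (limma, adjusted p = 0.650), a value that rests on few counts and that came to 1.11 with a pseudocount of 4 and 2.51 with a pseudocount of 0.5. It reached 10 scaled counts only in libraries labelled mdx or mdx/Ripk3mKO. The filter thus let it in through groups where it was high, and its value above wt is no support for a difference. The most abundant chain, Col5a2, stood at -0.09 ± 0.05, with a 95% interval of -0.19 to 0.01, and Col5a1 at 0.06 ± 0.06. Col3a1 stood at 0.13 ± 0.07, Col8a1 at 0.08 ± 0.07, Col18a1 at 0.33 ± 0.27 and Col5a3 at 0.55 ± 0.21, none of them with an adjusted p below 0.780 by limma.

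**Figure D2:**
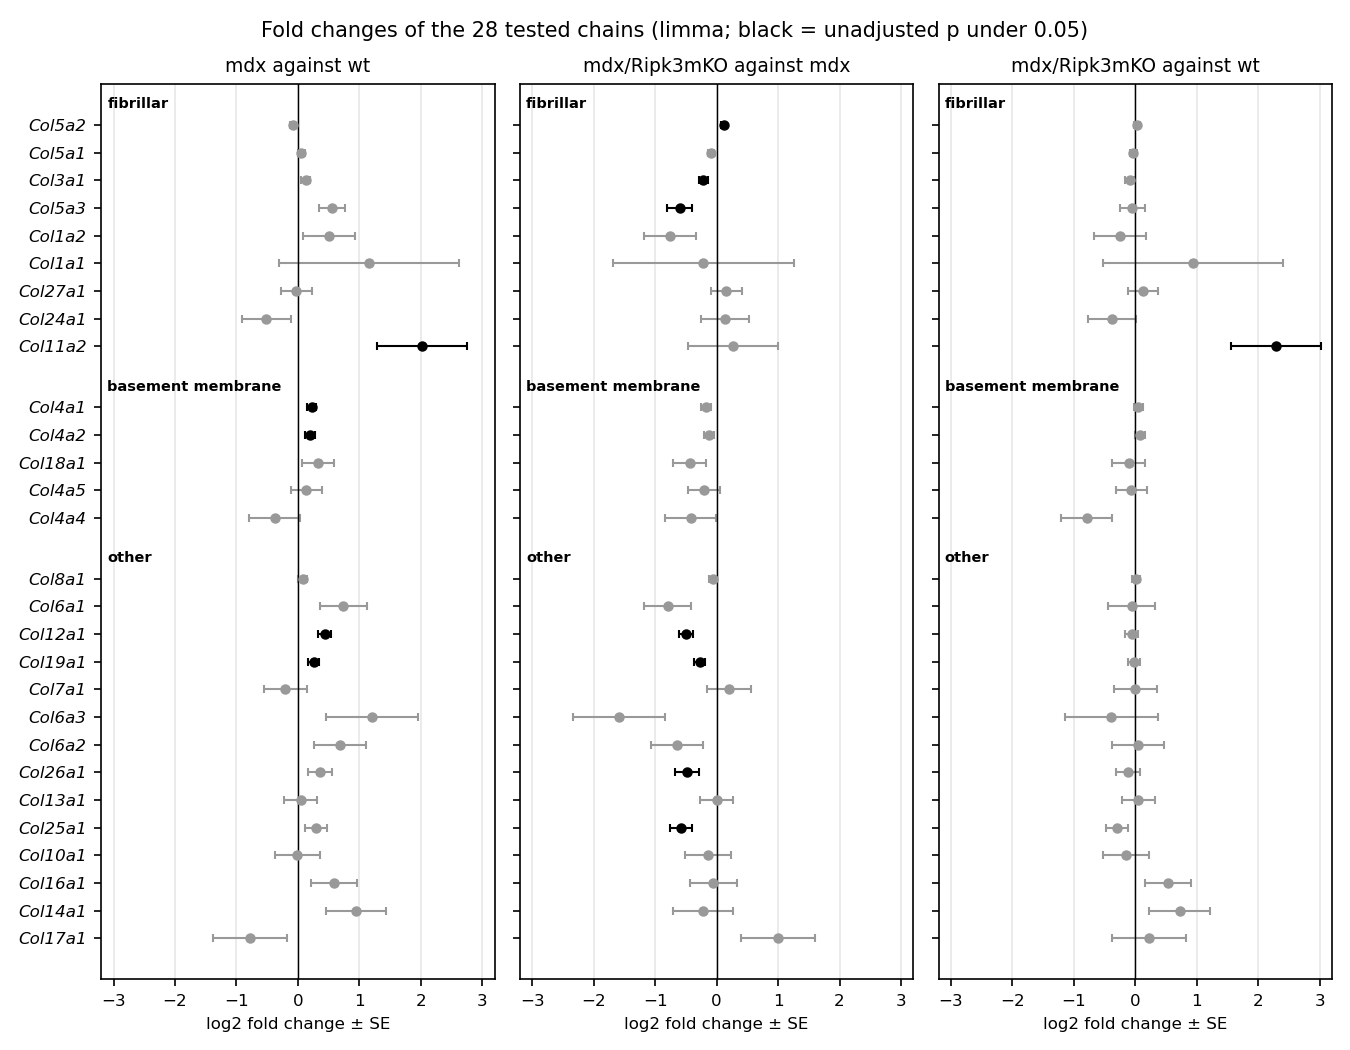
Log2 fold change of each of the 28 tested chains with its standard error, from the limma fit over 6 libraries, in the comparisons of mdx with wt, mdx/Ripk3mKO with mdx, and mdx/Ripk3mKO with wt; black points have an unadjusted p under 0.05. Of the 28 points 21 lie above 0 in the comparison of mdx with wt and 21 below 0 in that of mdx/Ripk3mKO with mdx, and the mdx libraries enter both.

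These fits take the spread from all 6 libraries, and the calls depended on that. With the wt and mdx libraries alone, the fold changes stayed as they were and 4 chains were called higher in mdx, where 0.67% of all genes were called higher. They were Col5a3 (limma, adjusted p = 0.00135), Col12a1 (adjusted p = 0.0110), Col1a1 (1.15 on the log2 scale, adjusted p = 0.0140) and Col6a1 (0.74, adjusted p = 0.0200). With all libraries Col1a1 was at 1.15 ± 1.47 and Col6a1 at 0.74 ± 0.38 (limma, adjusted p = 0.941 and 0.832). The same 4 were called higher without mdx/Ripk3mKO library 1 and without library 2, where 0.658% and 0.664% of all genes were, and 0 chains were called without any of the wt or mdx libraries, where 0.0% of all genes were. Over the separate libraries left out and the restriction to wt and mdx, limma gave adjusted p of 0.00135 to 0.992 for Col5a3, 0.0109 to 0.992 for Col12a1, 0.00633 to 0.993 for Col1a1 and 0.0175 to 0.992 for Col6a1.

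The comparison of mdx/Ripk3mKO with mdx asks what accompanies the Ripk3 change on the mdx background. It uses the same mdx libraries as the comparison above, so chains that were high in mdx there enter here as the reference. Again no chain was called by limma, where 0.206% of all genes were. At an unadjusted p under 0.05, 6 chains were lower and 1 higher, against 5.87% and 5.77% of all genes. The log2 fold change was below 0 for 21 of 28 chains and above for 7, with a median of -0.21 against -0.00 over all genes, of which 49.2% were above 0. For 12 chains both mdx/Ripk3mKO libraries lay below both mdx libraries and for 2 above, where all genes gave 20.3% and 21.0%. By class the median was -0.09 for fibrillar, -0.20 for basement membrane and -0.25 for other chains, and all 5 basement membrane chains were below 0.

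Col12a1 again had the smallest p, at -0.49 ± 0.11 (limma, adjusted p = 0.163, n = 2 and 2). The other lower chains at an unadjusted p under 0.05 were Col25a1 at -0.58 ± 0.18, Col3a1 at -0.22 ± 0.07, Col19a1 at -0.28 ± 0.10, Col26a1 at -0.48 ± 0.19 and Col5a3 at -0.60 ± 0.21, with limma adjusted p of 0.258 to 0.417. The higher chain was Col5a2, at 0.11 ± 0.05 (limma, adjusted p = 0.369). Col4a1 stood at -0.17 ± 0.08, Col4a2 at -0.13 ± 0.08, Col18a1 at -0.44 ± 0.27, Col5a1 at -0.09 ± 0.06 and Col8a1 at -0.06 ± 0.07.

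Without mdx/Ripk3mKO library 1, which stood apart in sex-linked transcripts, 6 chains fell in mdx/Ripk3mKO relative to mdx, where 1.7% of all genes were called lower. In that fit the group is library 2 alone, which is assumed to vary like the others. Col5a3 fell by 0.87 on the log2 scale (limma, adjusted p = 8.88e-05), Col12a1 by 0.65 (0.00121) and Col25a1 by 0.88 (0.00593). Col6a1 fell by 1.24 (limma, adjusted p = 0.00123), Col6a2 by 1.16 (0.0163) and Col1a1 by 2.07 (0.000885). Without library 2 in its place, Col1a1 was 1.64 higher in mdx/Ripk3mKO than in mdx (limma, adjusted p = 0.00543) and no other chain was called, where 0.05% of all genes were called higher. Over all fits with a library left out and that of these groups alone, the highest adjusted p were 0.758 for Col5a3, 0.420 for Col12a1, 0.569 for Col25a1, 0.861 for Col6a1, 0.910 for Col6a2 and 0.995 for Col1a1.

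The comparison of mdx/Ripk3mKO with wt showed chains on either side of 0 about equally often, 13 above and 15 below, with a median of -0.03 against 0.00 over all genes, of which 50.5% were above 0. No chain was called by limma, where 0.0% of all genes were. At an unadjusted p under 0.05, 1 chain was higher and 0 lower, against 1.24% and 2.09% of all genes, and the pairs lay apart for 3 chains in each direction, where all genes gave 14.4% and 15.1%. The chain was Col11a2, at 2.29 ± 0.73 (limma, adjusted p = 1), which came to 1.32 with a pseudocount of 4 and 2.79 with a pseudocount of 0.5. As Col11a2 passed the filter only through libraries with a label other than wt, its value above wt is no support for a difference. Col5a2 stood at 0.03 ± 0.05, with a 95% interval of -0.07 to 0.13, and Col4a1 at 0.05 ± 0.08, with an interval of -0.12 to 0.23. Col4a2 stood at 0.07 ± 0.08, Col18a1 at -0.11 ± 0.27, Col5a1 at -0.03 ± 0.06, Col3a1 at -0.09 ± 0.07, Col5a3 at -0.05 ± 0.21 and Col8a1 at 0.01 ± 0.07. Leaving out mdx/Ripk3mKO library 1 put 17 chains below 0, and leaving out library 2 put 9 there. Without library 2, Col1a1 was 2.79 higher than in wt (limma, adjusted p = 2.17e-05, against 1 with all libraries), where 0.0785% of all genes were called higher. An F-test over the 3 labels called no chain, with a smallest limma adjusted p of 0.337 for Col12a1, while 0.0781% of all genes were called. At an unadjusted p under 0.05 it held 6 chains, against 7.87% of all genes. It called 6 chains without mdx/Ripk3mKO library 1 and 4 without library 2, against 1.45% and 0.799% of all genes.

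The median absolute log2 difference between the libraries of a group was 0.19 in wt, 0.27 in mdx and 0.32 in mdx/Ripk3mKO over the chains, against 0.11 in each group over all tested genes, so libraries of the same label lay further apart in the chains. The chains and all genes were not matched for level. The largest differences were 2.58 for Col11a2 in wt, at 5 and 0 scaled counts, 1.21 for Col6a3 in mdx and 3.71 for Col1a1 in mdx/Ripk3mKO. Library 2 of mdx had the highest value of the 6 for 13 of 28 chains (46.4%, against 17.0% of all genes), and library 2 of mdx/Ripk3mKO the lowest for 14 (50%, against 16.3%). These shares are descriptions of the libraries and were not tested.

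**Figure D3:**
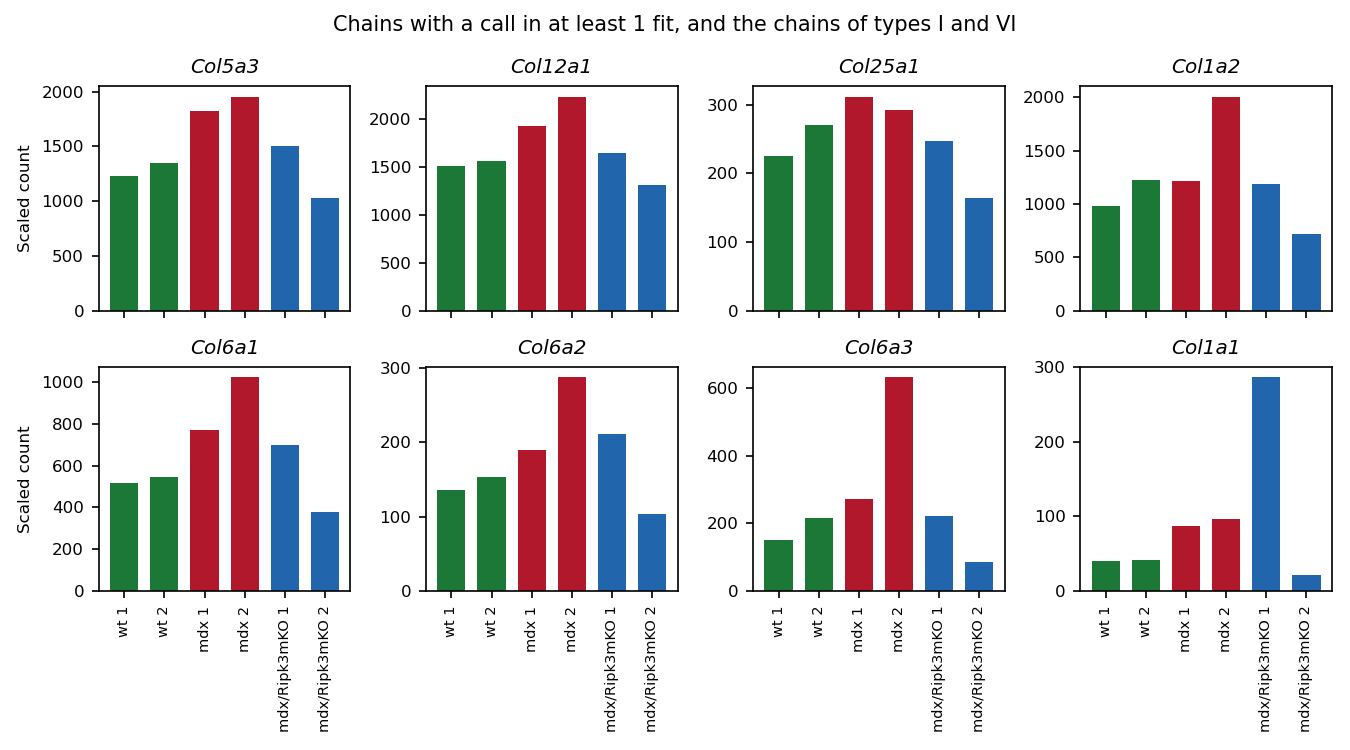
Scaled count in each of the 6 libraries for the 6 chains that were called in at least 1 fit, Col5a3, Col12a1, Col25a1, Col6a1, Col6a2 and Col1a1, and for Col1a2 and Col6a3, with a separate axis from 0 for each chain. The mdx libraries exceed both wt libraries in 7 of the 8 panels, the exception being Col1a2, and mdx/Ripk3mKO library 2 is lowest in all 8.

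Chains of 1 molecule did not all keep a fixed proportion. Per kilobase of exon, the ratio of Col1a1 to Col1a2 was 0.0773 and 0.0635 in the wt pair, 0.136 and 0.0907 in the mdx pair, and 0.458 and 0.0555 in the mdx/Ripk3mKO pair. Library 1 of mdx/Ripk3mKO was far above the others, in which Col1a1 reached at most 96 scaled counts against its 286. Its Col1a2, at 1182, was within the range of the other libraries. The ratio of Col5a1 to Col5a2 lay between 0.374 and 0.462. Exon length was the union of all annotated exons, which for Col1a2 is 12426 bases and includes alternative exons, so the order of the libraries is firmer than the size of a ratio.

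**Figure D4:**
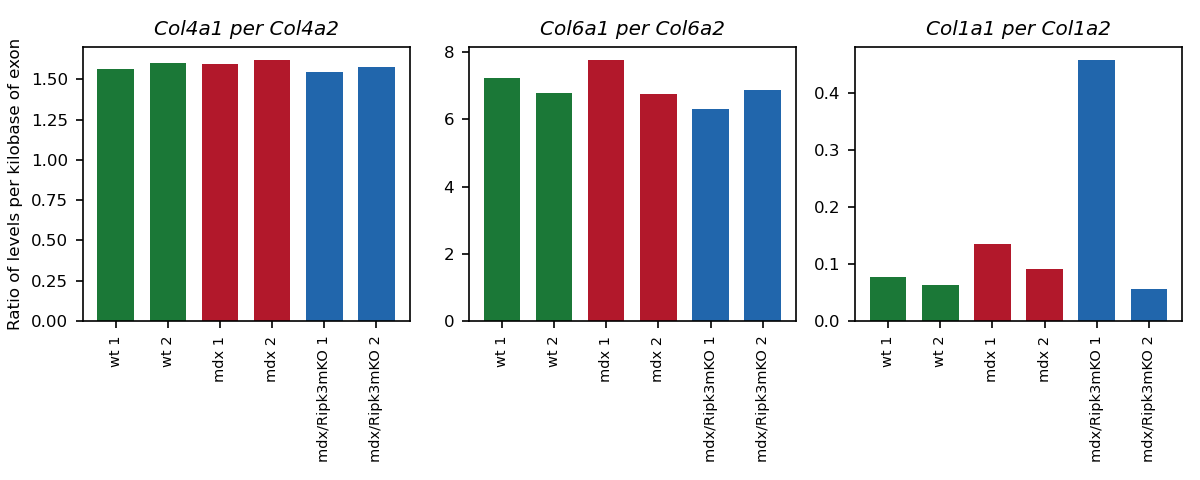
Ratio of the levels per kilobase of exon of partner chains in each of the 6 libraries, for Col4a1 to Col4a2, Col6a1 to Col6a2 and Col1a1 to Col1a2, with a separate axis from 0 in each panel. The type IV ratio keeps to 1.55 to 1.62, and the type I ratio reaches 0.458 in mdx/Ripk3mKO library 1 against at most 0.136 elsewhere.

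The genes that modify, secrete, trim, cross-link, bind and degrade collagens were read from 64 symbols in 7 roles, of which 48 were tested. In mdx against wt 28 were above 0 and 20 below, with a median of 0.05, and 0 were called by limma (8 higher and 2 lower at an unadjusted p under 0.05, where all genes gave 3.44% and 3.02%). In mdx/Ripk3mKO against mdx 20 were above 0 and 28 below, with a median of -0.04, and 1 was called, where 0.206% of all genes were (3 higher and 9 lower at an unadjusted p under 0.05, where all genes gave 5.77% and 5.87%). In mdx/Ripk3mKO against wt 21 were above 0 and 27 below, with a median of -0.01, and 0 were called (0 higher and 1 lower at an unadjusted p under 0.05, where all genes gave 1.24% and 2.09%).

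The called gene was Adamts2, the protease that removes the amino-terminal propeptide of fibrillar procollagens. It was at 126 and 128 scaled counts in the wt pair, 167 and 176 in the mdx pair, and 105 and 78 in the mdx/Ripk3mKO pair. Its libraries fell into separate ranges by label. Adamts2 fell by 0.91 ± 0.16 in mdx/Ripk3mKO relative to mdx (limma, adjusted p = 0.0393), and stood at 0.43 ± 0.16 in mdx against wt (adjusted p = 0.661) and -0.48 ± 0.16 in mdx/Ripk3mKO against wt (adjusted p = 1). Without mdx/Ripk3mKO library 1 it was called again, at -1.13, together with P4ha1 at -0.38, Mmp14 at -0.46, Mrc2, an endocytic collagen receptor, at -0.53 and Loxl1 at -0.63, where 1.7% of all genes were called lower. Without any of the other 5 libraries Adamts2 was not called, and without mdx/Ripk3mKO library 2 the called gene was the proteoglycan Bgn, at -0.73, where 0.15% of all genes were called lower.

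In the other roles the members with the smallest p did not pass. Loxl1, a lysyl oxidase that cross-links elastin and collagen, was at 343 and 394 scaled counts in the wt pair, 500 and 515 in the mdx pair, and 407 and 327 in the mdx/Ripk3mKO pair. It stood at 0.46 ± 0.11 in mdx against wt (limma, adjusted p = 0.36) and -0.47 ± 0.11 in mdx/Ripk3mKO against mdx (adjusted p = 0.0987). The mdx libraries were above the other 4. Loxl1 was called higher in mdx than in wt, at the same 0.46, with these groups alone and without either mdx/Ripk3mKO library. The membrane collagenase Mmp14 stood at 0.29 ± 0.08 and -0.40 ± 0.08 in the same comparisons (limma, adjusted p = 0.495 and 0.0814). The collagen receptor kinase Ddr1 stood at -0.22 ± 0.06 and 0.31 ± 0.06 (limma, adjusted p = 0.495 and 0.0702), with its lowest values in mdx. P4ha1, a catalytic subunit of prolyl hydroxylase, stood at 0.25 ± 0.09 in mdx against wt, and its paralogue P4ha2 at -0.31 ± 0.12 in mdx/Ripk3mKO against mdx. The folding factor Fkbp10 stood at -0.19 ± 0.07 and 0.18 ± 0.07, and fibronectin, Fn1, at 0.25 ± 0.11 and -0.28 ± 0.11.

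In mdx/Ripk3mKO against wt the smallest p of the other roles belonged to Ddr2, a second collagen receptor kinase, at -0.10 ± 0.05, the metalloproteinase inhibitor Timp2 at 0.13 ± 0.07, Bgn at -0.33 ± 0.18, P3h3 at 0.30 ± 0.18, the COPII coat subunit Sec24d at 0.08 ± 0.05 and Loxl3 at 0.08 ± 0.12, each with a limma adjusted p of 1. Without mdx/Ripk3mKO library 2 Bgn was called lower than in wt, at -0.57 (limma), where 0.0642% of all genes were called lower. Under the other settings tried it was not called in that comparison. The collagen chaperone Serpinh1 was abundant in all libraries, at 19707 to 21490 scaled counts, as were P4hb, at 14324 to 15725, and the collagen-binding Sparc, at 21328 to 23789.

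Markers of other cells were read beside these results. Of 6 pericyte and smooth muscle markers 4 were tested, Rgs5, Pdgfrb, Abcc9 and Notch3, and their summed scaled counts were 3096 and 3211 in the wt pair, 3595 and 4067 in the mdx pair, and 3482 and 2827 in the mdx/Ripk3mKO pair. Library 2 of mdx was highest and library 2 of mdx/Ripk3mKO lowest, as for the type VI chains and Col1a2, and the part of these markers in those results was not tested. Notch3, at 1948 to 2566 scaled counts, and Abcc9, at 614 to 1030, made up most of the sum. Notch3, Abcc9 and Pdgfrb were each highest in mdx library 2 and lowest in mdx/Ripk3mKO library 2. Rgs5, at 11 to 27, was also highest in mdx library 2 but lowest in wt library 1, with mdx/Ripk3mKO library 2 at 17. Kcnj8 and Myh11 were not listed. Of 11 fibroblast and fibro-adipogenic markers 5 were tested, and Dpt, Lum, Dcn, Clec3b, Pi16 and Mfap5 were not listed. Gsn (3689 to 4953) and Dpep1 (1317 to 1604) made up most of the counts of the 5, while Ly6a was at 23 to 40 and Smoc2 at 22 to 33. The sum of the 5 was 5327 and 5336 in the wt pair, 5500 and 5499 in the mdx pair, and 6646 and 5092 in the mdx/Ripk3mKO pair. Library 1 of mdx/Ripk3mKO, where Col1a1 was highest, was highest here too, carried by Gsn at 4953 scaled counts, while Pdgfra, which defines these progenitors, was at 29 there and 24 to 32 over all libraries. The part of fibroblast markers in the Col1a1 values was not tested.

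Endothelial markers, 4 listed of 7 and 3 of these tested (all but Kdr), summed over the 4 to 38 and 48 scaled counts in the wt pair, 42 and 49 in the mdx pair, and 37 and 32 in the mdx/Ripk3mKO pair. The sums of mdx library 2 and wt library 2 were nearly equal, and library 2 of mdx/Ripk3mKO was lowest, at few counts. Cdh5 and Tek were highest in mdx library 2, while Pecam1 was lowest there and Kdr highest in wt library 2. The part of these markers was not tested. The 2 tested of 5 tenocyte markers summed to 1423 to 1653 scaled counts, the 2 of 5 chondrocyte markers to 704 to 767, and the 8 tested of 9 myogenic markers to 109198 to 126622. Tenocyte and myogenic sums were highest in mdx/Ripk3mKO library 1 and lowest in mdx library 2, but not all members followed. Scx, Myod1, Myog, Cdh15 and Itga7 were lowest in mdx library 2. Mkx (90 scaled counts against 55 to 76), Pax7 (2119), Myf5 (2694) and Vcam1 (2436) were highest there, and Des (35039) lay between. Schwann cell markers, 2 of 5, summed to 94 to 138, and macrophage markers, 2 of 5, to 28 to 42. The other markers of these lists were not analysed here.

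The chains share properties that their names did not select. Their exon length had a median of 7464 bases (range 3130 to 15228) against 4237 for all tested genes, and 96.6% of the chains were longer than that. Their GC content had a median of 55.7% (45.9% to 62.9%) against 49.5%. RefSeq windows of 300 bases around the start, 26 in number, were found for 24 of the 29 chains. Their median GC content was 60.2% against 52.7% over 32851 windows, which belong to 27025 genes, tested here or not. The GGGCGG motif, on either strand, lay in 16 of 26 windows (61.5%) against 35.7% of all windows, CCAAT in 10 (38.5%) against 37.4%, and TATAAA in 5 (19.2%) against 13.6%. The windows are not independent, since Col4a1 and Col4a2 share a GGGCGG match and Col6a2 has a match in each of its windows. GGGCGG is itself rich in G and C, as are these windows, and a missing match says only that the letters are not in the window. Col1a1, Col5a2, Col12a1, Col14a1 and Col26a1 had no window.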

How the data were processed

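The table holds read counts per gene of 6 mouse libraries made with version 2 of a Takara low-input kit for stranded total RNA, per the labels' protocols. Named in the submitters' processing notes, with no role for each, are mm10, DESeq2 1.18.1, featureCounts 1.6.3 of Subread, STAR 2.6.1d and Trimmomatic 0.36. The deposited values are whole numbers that had already been scaled between libraries, so they were handled as a score, with no count model. This was read from the numbers themselves, which gave median-of-ratios size factors of 1.002 in each library and skip or repeat at regular steps. The divisors estimated from those steps (wt 0.910 and 0.870, mdx 0.922 and 0.954, mdx/Ripk3mKO 1.205 and 1.206) make the last pair the deepest. Both mdx columns carry the same header, and their library numbers are names in column order.

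Chains and lists were chosen with earlier results of these data known. Values as log2(scaled count + 1) were fitted with limma 3.58.1 (R 4.3.3, statmod 1.5.0) in 1 fit over all 6 libraries, with the label as the only term and empirical Bayes moderation with trend and robust fitting. The 14077 genes that reached 10 in 2 or more libraries were tested, with Benjamini-Hochberg adjustment over all of them and a threshold of 0.05. This scale understates the change of low genes, and errors are moderated standard errors. Exon length and GC content came from GENCODE M21, matched for 14502 genes. Promoter windows came from RefSeq. Fits were run on simulated data with the same dispersion for all genes, no outlying library and larger changes than most chains showed. How they perform on data with the spread seen here was not tested.

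Values per library are given for chains with a mean of at least 100 scaled counts or an unadjusted p under 0.05. Fold changes are given for chains at an unadjusted p under 0.05 or among the 8 with the highest level per kilobase, and, of the processing genes, for those past the threshold and the member of each role with the smallest p. Col1a1 and the type VI chains were also named after their values were seen. Mean chi-square per gene between libraries of a group was 4.28 for wt, 4.92 for mdx and 7.99 for mdx/Ripk3mKO. Across labels it ran from 2.73, for wt library 1 with mdx/Ripk3mKO library 2, to 11.0, for mdx library 1 with mdx/Ripk3mKO library 2. Library 2 of wt with library 2 of mdx was at 4.10. The closest pair thus carried different labels, and no library was taken as a duplicate.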

Additional observations from a re-analysis of the deposited data

How the results depend on the processing

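With other pseudocounts, filters, scalings, spread models or a GC content and exon length correction, no chain was called, and the medians kept their sign in the comparisons with mdx. Limited to the groups compared, 4 chains and 1 processing gene, Loxl1, were called higher in mdx against wt, where 0.67% of all genes were called higher. With 1 library left out, called chains ranged from 0 to 4 in mdx against wt, 0 to 6 in mdx/Ripk3mKO against mdx, 0 to 1 against wt and 0 to 6 by the F-test. Called processing genes ranged from 0 to 1, 0 to 5 and 0 to 1. Adamts2 was not called with a mean of at least 50, without variance trend or robust fitting, or with its 2 groups alone, each giving 0. The median in mdx/Ripk3mKO against mdx ranged from -0.33 to -0.13 (-0.33 without mdx library 1), and the number of chains below 0 in mdx/Ripk3mKO against wt was 9 without mdx/Ripk3mKO library 2, 17 without its library 1, 19 without wt library 1 and 15 without each of the others.

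With a library left out, fold changes that changed sign were Col8a1 in mdx against wt (-0.0014 to 0.15) and in mdx/Ripk3mKO against mdx (-0.14 to 0.015), and Col1a1 in the latter (-2.07 to 1.64). In mdx/Ripk3mKO against wt they were Col1a1 (-0.92 to 2.79), Col18a1 (-0.26 to 0.036), Col4a1 (-0.055 to 0.16), Col4a2 (-0.031 to 0.17), Col5a1 (-0.093 to 0.025), Col5a3 (-0.32 to 0.23) and Col8a1 (-0.027 to 0.055). The causes were not tested.

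The replicate block was possible for wt and mdx/Ripk3mKO, whose columns carry numbers. It called 0 chains, with a median of -0.03, also with the GC content and exon length correction. The number 1 minus number 2 differences of both groups had a correlation of -0.0088 across 13761 genes, so no shift common to equal numbers was seen. Whether equal numbers mark a shared preparation cannot be told from this.

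With 2 libraries a label, differences the size of the spread within a label were not detectable, and chains under about 20 scaled counts rest on few reads.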
